A study of Sorghum bicolor with 14 samples.

Results

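The genes described here are the tonoplast sugar transporters TST1, TST2 and TST3 of sorghum (Sorghum bicolor), 3 genes set against the 34755 loci of the development table and the 32726 loci of the drought table of one study. They were chosen by annotation ID, as the loci that carry Sobic.001G312900 (TST1), Sobic.004G099300 (TST2) and Sobic.010G276100 (TST3). Each ID was found at 1 locus in each table. The rule itself uses no measured value, though the genes were picked with earlier results of these data known. The files do not pair the IDs with names, so the identity of the genes rests on the IDs alone.

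RNA was sequenced from the middle internode of the stem of M35-1, a grain variety, with 2 libraries in each of 7 groups. No transgene or mutant allele is given for any group. The field-grown plants were sampled first at floral initiation and booting, then during grain filling at the milky stage and at soft dough. The pot-grown plants had water withheld from the flag leaf stage and reached booting with soil moisture readings of about 13% (D1), 7% (D2) or 2% (D3), at which they were harvested. No watered pot group was analysed here. Each group has 1 FPKM value per locus (sequenced fragments scaled to transcript length in kilobases and to 1000000 mapped fragments), which both of its libraries name in their labels. It was therefore taken as the authors' pooled value, and no value below has an SD, an n of its own or a p-value. The labels give stages and no ages in days.

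Tonoplast sugar transporters sit in the membrane around the vacuole and belong to the major facilitator superfamily. They exchange protons from the vacuole for sugars from the cytosol and so load the vacuole with hexoses and sucrose. In Arabidopsis they are known for sugar storage in leaf vacuoles, in sugar beet for sucrose storage in the taproot, and in sorghum they have been studied in the stem, whose parenchyma cells store sucrose.

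TST1 and TST2 were among the abundant transcripts of the internode in all 7 groups, and TST3 was listed at 0 in 6 of them. In the field-grown plants both TST1 and TST2 were highest at floral initiation and lower at each of the next 2 stages. In the drying pots TST1 differed little between the soil moisture levels, and TST2 had its highest value of that table in the driest soil. In internode RNA, fewer cells of a type and less RNA per cell cannot be told apart.

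TST1 lies on chromosome 1 from 59989926 to 59995061, in the file's own positions; the sources used here name no genome build. At floral initiation TST1 stood at 327 FPKM, and plants at booting had 213, those at milky stage 146 and those at soft dough 137. In the drought table the D1 value was 171 FPKM, the D2 value 161 and the D3 value 160.1. Along development each value was below the one before it, whereas the 3 pot values lay close together. Ordered by level, TST1 was the 266th of 34755 loci at floral initiation, within the top 0.765%, and the 832nd at soft dough, within the top 2.39%. In the drought table it ranked between 741st (D1) and 783rd (D3) of 32726 loci.

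TST2 lies on chromosome 4 from 8829373 to 8834611. At floral initiation TST2 stood at 428 FPKM, and plants at booting had 236, those at milky stage 86.0 and those at soft dough 86.8. In the drought table the D1 value was 151 FPKM, the D2 value 166 and the D3 value 199. The values at the 2 late stages were nearly the same, and the pot values were higher at each drier reading. By level TST2 was the 177th locus at floral initiation, within the top 0.509%, and the 1491st at milky stage, within the top 4.29%. Among the pot groups it moved up the order, and was the 838th locus at D1, the 742nd at D2 and the 621st at D3.

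TST3 lies on chromosome 10 from 60923800 to 60926597. It had 0.0200 FPKM at soft dough and was listed at 0 at the other 3 stages and at D1, D2 and D3. This was a value near the bottom of that column, where 5.47% of the loci above 0 were lower. A listed 0 is common in these tables: of 26835 loci whose ID and printed range matched between the tables, 24.7% were at 0 in at least 6 of the 7 columns. TST3 was below the 1 FPKM needed to enter any comparison, so it is described by these values alone. Since an exact 0 can be a failed estimate, no fold against it is given.

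No other locus overlapped the printed range of TST1, TST2 or TST3 in either table. TST1 and TST2 together made up 0.116% of the summed FPKM of all loci at floral initiation and 0.0623% at booting, then 0.0332% at milky stage and 0.0342% at soft dough. In the pots their share was 0.0456% in D1, 0.0490% in D2 and 0.0518% in D3. The 2 tables were normalized separately, so the pot and field values, although all pot plants and 1 field group were at booting, are set side by side and not compared.

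**Figure D1:**
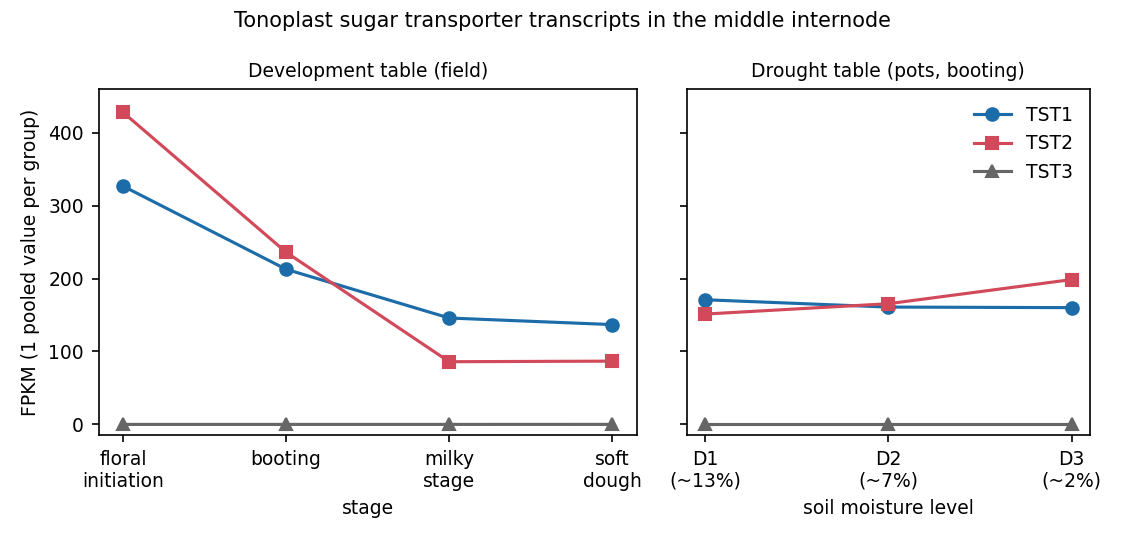
FPKM of TST1 (circles), TST2 (squares) and TST3 (triangles), 1 pooled value per group, by development stage (left panel) and by soil moisture level (right panel, drier to the right). TST2 runs from 428 FPKM at floral initiation to 86.8 at soft dough and crosses TST1 between booting and milky stage, while TST3 lies at or next to 0 throughout.

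Set against floral initiation, soft dough spans the sampled development of the internode. TST2 had 86.8 FPKM at soft dough against 428 at floral initiation, a 4.93-fold lower level and a difference of -2.29 in log2(FPKM + 1). TST1 had 137 FPKM at soft dough against 327 at floral initiation, which is 2.39-fold lower and a log2 difference of -1.25. A locus was called higher or lower where this difference was at least 1 in size and the higher column held at least 1 FPKM. Both genes were thus called lower, as were 14.0% of the 18568 loci measured in this comparison. Among all measured loci 2.68% had a difference as low as that of TST2 and 10.1% one as low as that of TST1, and the median over all measured loci was 0.03. Lower calls were somewhat more frequent among abundant loci: 18.5% of the 1537 loci at 100 FPKM or more in the higher column were called lower, 8.26% had a difference as low as that of TST2 and 14.8% one as low as that of TST1. Higher calls were more frequent there too, at 21.3%, against 14.7% of all measured loci.

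On the log2 scale most of the TST2 difference lay between booting and milky stage, while in FPKM the step before it was the larger. TST2 had 86.0 FPKM at milky stage against 236 at booting, 2.75-fold lower with a log2 difference of -1.45, and was called lower beside 14.0% of 18209 measured loci. A difference as low as this was seen at 7.6% of measured loci and at 11.6% of those at 100 FPKM or more in the higher column. TST1 had 146 FPKM at milky stage against 213 at booting, with a log2 difference of -0.54 that did not reach the threshold for a call. Differences as low as that of TST1 were seen at 26.2% of measured loci in this step.

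At the first step, TST2 had 236 FPKM at booting against 428 at floral initiation and TST1 had 213 at booting against 327 at floral initiation. The log2 differences were -0.86 for TST2 and -0.62 for TST1, neither of which was called, where 4.14% of 17889 measured loci were called lower. Differences as low were seen at 5.88% of measured loci for TST2 and at 11.0% for TST1. Both shares were smaller than in the step from booting to milky stage. Among loci at 100 FPKM or more in the higher column they were 4.26% for TST2 and 6.46% for TST1. The call of TST2 depended on the scaling: the difference was -1.01 and was called lower when the columns were rescaled to the same sum, and also -1.01 with the 50 most abundant loci left out of that sum. Lower calls then made up 6.32% of measured loci under the first scaling and 5.55% under the second. These 2 scalings moved the median of all measured loci in this step from 0.03 to -0.11, so that relative to the median TST2 differed by about the same amount. Library titles close with a 1 at floral initiation and with a 2 at the other 3 stages, a digit whose meaning is not labelled, so the digit and the stage cannot be told apart in this step and in the span from floral initiation to soft dough.

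At the last step TST1 and TST2 differed little. TST1 had 137 FPKM at soft dough against 146 at milky stage, a log2 difference of -0.09. TST2 had 86.8 FPKM at soft dough against 86.0 at milky stage, a log2 difference of 0.01. The sign of both depended on the scaling and neither was called, whereas 11.8% of 17947 measured loci were called in one direction or the other.

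Between the soil moisture levels the differences of both genes were below the threshold. The time without water at each level was not used here, so it cannot be told apart from soil moisture. TST2 had 199 FPKM at D3 against 151 at D1, a 1.31-fold higher level with a log2 difference of 0.39. A difference as high as this was seen at 19.3% of 17045 measured loci, of which 3.5% were called higher and 11.6% in either direction. At 100 FPKM or more in the higher column, 74.7% of loci lay at or below the TST2 difference, against 80.7% of all measured loci. TST1 had 160.1 FPKM at D3 against 171 at D1, a log2 difference of -0.09, and 41.7% of the measured loci had a difference as low.

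The intermediate reading divided the TST2 difference into 2 parts of the same sign. TST2 had 166 FPKM at D2 against 151 at D1, with a log2 difference of 0.13, and 199 FPKM at D3 against 166 at D2, with a log2 difference of 0.26. TST1 had log2 differences of -0.09 for D2 over D1 and -0.01 for D3 over D2. The division between the steps depended on the scaling: with columns rescaled to one sum, TST2 differed by 0.21 in each step, and TST1 by -0.0035 for D2 over D1 and -0.064 for D3 over D2. In D2 over D1, 6.11% of 16865 measured loci were called in either direction, and in D3 over D2 10.6% of 16739. These values are no sign that the transcripts stayed the same, since the spread between libraries is not known.

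**Figure D2:**
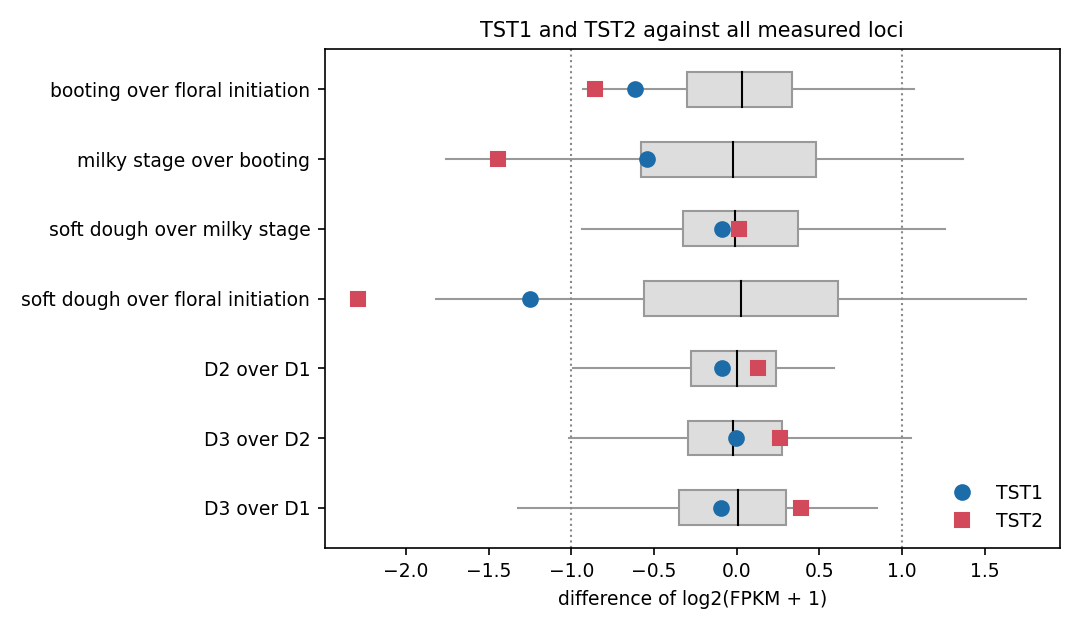
Difference of log2(FPKM + 1), with the later or drier group over the earlier or wetter one, for TST1 (circles) and TST2 (squares) in 7 comparisons; boxes span the 25th to 75th and lines the 5th to 95th percentile of all measured loci, the black bar is their median, and dotted lines mark the call threshold. TST2 lies outside the percentile line at soft dough over floral initiation, at -2.29, and both genes lie within the threshold in every drought comparison.

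The balance of the 2 expressed transporters differed between the groups, and this ratio within a column does not depend on how the columns are scaled. TST2 was above TST1 at floral initiation, with a ratio of TST2 to TST1 FPKM of 1.31, and at booting, with a ratio of 1.11. It was below TST1 at milky stage, with a ratio of 0.589, and at soft dough, with a ratio of 0.634. TST2 thus supplied 56.7% of the summed FPKM of the 3 genes at floral initiation and 52.6% at booting, then 37.1% at milky stage and 38.8% at soft dough.

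In the pots the ratio was 0.885 in D1, 1.03 in D2 and 1.24 in D3. The order of the 2 genes was therefore TST1 first at D1 and TST2 first at D3, with the 2 close together at D2. The share of TST2 was 47.0% in D1, 50.7% in D2 and 55.4% in D3. Whether the ratio of any of the 7 groups differs from an even balance was not tested, as no replicate values were used. Those at booting, D1 and D2 lie nearest to 1.

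**Figure D3:**
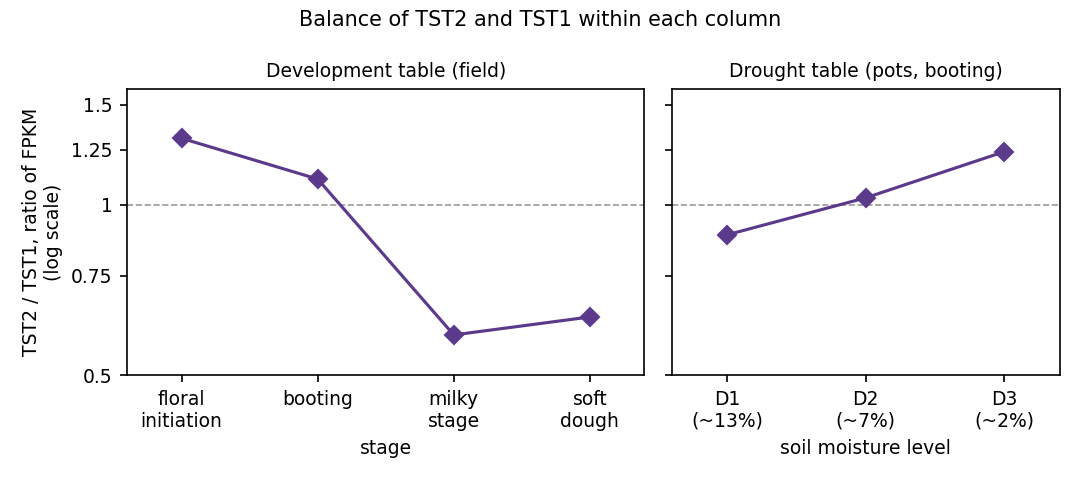
Ratio of TST2 to TST1 FPKM within each group on a log axis, by stage (left panel) and by soil moisture level (right panel, drier to the right); the dashed line marks equal levels. The ratio lies above 1 at floral initiation and booting and at 0.589 and 0.634 in the 2 later stages, and runs from 0.885 at D1 to 1.24 at D3.

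Among loci with a Sobic ID, those next to TST1 and TST2 on their chromosomes were far less abundant than either. Loci without such an ID were left out here, so whether any lies nearer was not examined. The locus after TST2, Sobic.004G099400, starts 27449 bp beyond its end and had 7.87 FPKM at floral initiation and 6.16 at booting, then 0.730 at milky stage and 0.792 in soft dough plants. In the pots Sobic.004G099400 had 2.75 FPKM in D1, 1.95 in D2 and 1.51 in D3, the opposite order to that of TST2. The locus before TST2, Sobic.004G099200, ends 494 bp from it and was at most 0.00267 FPKM in any group.

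Beside TST1, Sobic.001G312801 had 17.2 FPKM at floral initiation and 19.6 at booting, then 13.2 at milky stage and, in soft dough plants, 5.70, and Sobic.001G313000 had 3.15, 1.78, 1.31 and 0.602 FPKM at the same stages. Pot values of Sobic.001G312801 were 21.2 FPKM in D1, 15.4 in D2 and 9.44 in D3. Those of Sobic.001G313000 were 3.85 FPKM in D1, 2.28 in D2 and 2.37 in D3. Beside TST3, Sobic.010G276000 was between 0.104 FPKM at D3 and 1.04 FPKM at soft dough, and Sobic.010G276200 was listed at 0 in all 7 groups.

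Loci whose pattern was most like that of TST1 or TST2 were sought among 10418 other loci with 1 ID, the same range in both tables and at least 5 FPKM in their highest group. Likeness was the root mean square difference in log2(FPKM + 1) over the 7 columns, each centred within its table. Closest to TST1 were Sobic.001G300100, with a difference of 0.05 log2 units, and Sobic.003G362200, with 0.06. Sobic.001G300100, on chromosome 1 from 58153962 to 58157938, had 18.5 FPKM at floral initiation and 12.3 at booting, then 8.11 at milky stage and 8.23 at soft dough. Its pot values were 16.2 FPKM in D1, 15.8 in D2 and 15.9 in D3. The likeness of Sobic.001G300100 to TST1 ranked first with pseudocounts of 1 and 0.1, and 50th with 5. Sobic.003G362200 had 6.45 FPKM at floral initiation and 2.39 at soft dough, a low level at which the added 1 FPKM shrinks the differences. It ranked 271st with a pseudocount of 5 and 6th with 0.1, a setting chosen after seeing the data. With 0.1 the second closest locus was Sobic.002G425500, with 83.1 FPKM at floral initiation and 39.6 at soft dough.

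Closest to TST2 were Sobic.005G021900 (0.09 log2 units) and Sobic.005G205000 (0.11 log2 units). Sobic.005G021900 had 10.2 FPKM at floral initiation and 0.993 at soft dough, a low level at which the added 1 FPKM shrinks the differences. It ranked 107th with a pseudocount of 0.1 and 140th with 5, so its likeness to TST2 belongs to that choice. With 0.1, chosen after seeing the data, the closest locus was Sobic.002G312700, on chromosome 2 from 68613716 to 68619617, with 30.2, 15.3, 6.45 and 6.74 FPKM along the stages and 9.79, 9.33 and 11.7 FPKM at D1, D2 and D3. TST1 and TST2 themselves were 0.40 log2 units apart. TST1 ranked 439th among the loci like TST2, and TST2 ranked 2932nd among those like TST1.

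**Figure D4:**
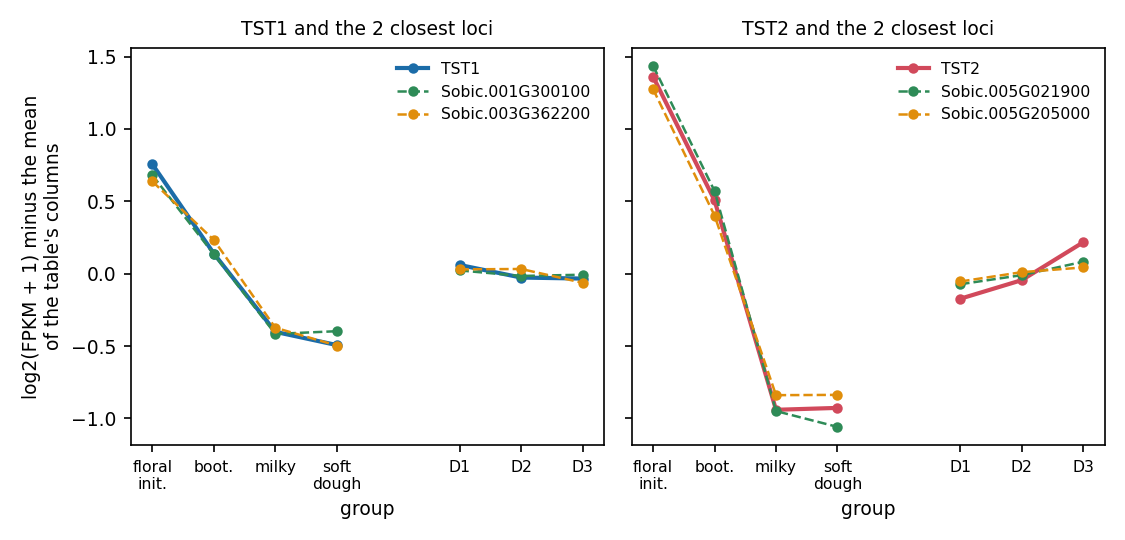
Centred log2(FPKM + 1) of TST1 (left panel, solid line) and TST2 (right panel, solid line) with the 2 closest loci of each (dashed lines), over the 4 stages and the 3 soil moisture levels, each centred within its table. The loci beside TST1 lie 0.05 and 0.06 log2 units from it, and those beside TST2 0.09 and 0.11, with less difference between D3 and D1 than TST2 has.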

How the data were processed

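The authors deposited FPKM values, per the file headers, in a development table and a drought table, each with its own locus models and 1 column per group. Cuffdiff, HISAT2 2.0.5, Bowtie2 2.2.9 and cutadapt 1.8.1 stand in the submitters' processing notes, with no role stated. Genome build, filters and strand setting: not given in the sources used here. Depth is unknown, as no library totals were used. The members and lists were chosen with earlier results of these data known.

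From the deposited FPKM, differences in log2(FPKM + 1) were taken within a table only, with Python 3.11.15, pandas 2.3.3 and numpy 2.4.6. On this scale the changes of low loci are understated. The calling was run on simulated data with counting noise only, which checks the code and says nothing of the spread between libraries. The genes named are the 3 members, their neighbours (chosen after seeing the data) and the 2 loci closest in pattern to each expressed member. The 9 lists of sugar transport and sugar metabolism genes were to be found by description in a reference annotation. Of 34129 IDs, 0 matched the reference table used here, so no list was run, and no protein or promoter sequence is printed. Alternatives were other pseudocounts, scalings and filters.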

Additional observations from a re-analysis of the deposited data

How the results depend on the processing

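The 14 log2 differences of TST1 and TST2 were recomputed under 7 alternatives. Every call named above was kept under each of them, but TST2 at booting over floral initiation was also called lower after rescaling to one sum (-1.0092), and likewise when that sum omitted the 50 most abundant loci (-1.0077), a setting chosen after seeing the data. Soft dough over milky stage changed sign for TST1 after rescaling to one sum (0.0029) and for TST2 with median-of-ratios size factors (-0.044), both near 0. Over all alternatives, soft dough over floral initiation ran from -2.34 to -2.24 for TST2 and from -1.30 to -1.23 for TST1, and D3 over D1 ran from 0.38 to 0.42 for TST2. Summed FPKM of the 3 genes, with columns rescaled to 1000000, was 1165 (floral initiation), 623 (booting), 332 (milky stage), 342 (soft dough), 456 (D1), 490 (D2) and 518 (D3), where the higher level comes from the rescaling. The shares of TST2 are the same there by construction. The loci named as closest kept their ranks with median-of-ratios size factors. That outcome was nearly fixed by construction, since a size factor shifts all loci of a column almost alike. By contrast, Sobic.003G362200 ranked 271st with a pseudocount of 5 and 6th with 0.1, and Sobic.005G205000 630th and 148th.

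With a pseudocount of 5, which shrinks every difference, loci called numbered 685 for booting over floral initiation, 2156 for milky stage over booting, 925 for soft dough over milky stage, 2722 for soft dough over floral initiation, 384 for D2 over D1, 804 for D3 over D2 and 939 for D3 over D1, against 1742, 4384, 2122, 5330, 1030, 1779 and 1976 with 1. A pseudocount of 0.1 gave 1682 for D2 over D1. Of the calls at booting over floral initiation 57.5% were higher as deposited and 44.8% after rescaling to one sum. No paired analysis was possible because each group has 1 pooled column, and no library could be left out for the same reason.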
